A study of Mus musculus with 4 samples.

Results

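Small leucine-rich proteoglycans are short secreted matrix proteins built around leucine-rich repeats. They were measured here through 9 genes, read by 20 probe sets among 45101, and 9 of the 18193 genes the array could name. The genes were Dcn (decorin), Bgn (biglycan), Aspn (asporin), Lum (lumican), Fmod (fibromodulin), Prelp, Omd (osteomodulin), Ogn (osteoglycin) and Podn (podocan). They were chosen by family membership, and the family was selected on a measured value, because Lum was the gene furthest apart between both control arrays. The difference between the control arrays is therefore a description for Lum, and it supports nothing.

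The cells were mouse DFAT cells, de-differentiated fat cells grown in DMEM with 10% FBS. These are fibroblast-like cells that arise when mature fat cells lose their lipid in culture. There were 4 groups with 1 array each: cells given DMSO, the solvent; cells given Y-27632, an inhibitor of the ROCK kinases that drive actomyosin contraction; cells transfected with a control siRNA; and cells transfected with an siRNA against Mkl1. Mkl1, now named Mrtfa, encodes a coactivator that carries actin state to the transcription factor SRF. The labels give no dose, duration, number of cultures, siRNA sequence, mouse strain or induction of fat formation, and no group with untransfected and solvent-free cells was analysed here. With 1 array per group there is no replicate check and no p-value, and differences are differences between arrays. The number of arrays limits the precision.

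As background, these proteins bind fibrillar collagens and help set the width and spacing of the fibrils. Many carry chondroitin, dermatan or keratan sulfate chains, and decorin and biglycan also bind growth factors such as TGF-beta. Lumican, fibromodulin, PRELP and osteomodulin form class II of the family, decorin, biglycan and asporin class I, osteoglycin belongs to class III and podocan to class V. In fat tissue they are known mainly as products of stromal and progenitor cells.

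Several members lie side by side in the genome, so their values are also given in genome order. In the RefSeq gene table of GRCm38.p6, Dcn and Lum are adjacent on chromosome 10, Aspn, Omd and Ogn follow each other on chromosome 13, and Prelp and Fmod are adjacent on chromosome 1. Bgn lies on chromosome X and Podn on chromosome 4. The RefSeq promoter table held 7 of the 9 members, and Lum and Dcn have no entry in it. The chromosome 13 neighbours stood on the same side of 0 between the control arrays, Ogn by only 0.19. The family was selected on that contrast, so this only set which sequences are shown and supports nothing. The 120 bases before the start of each gene in the chromosome 13 row are shown. They are read 5′ to 3′ on the plus strand of GRCm38.p6, from chr13:49544323-49544442 for Aspn, chr13:49582342-49582461 for Omd and chr13:49607895-49608014 for Ogn. Capitals mark a match to GGAATG, the core letters bound by TEAD factors.

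Aspn: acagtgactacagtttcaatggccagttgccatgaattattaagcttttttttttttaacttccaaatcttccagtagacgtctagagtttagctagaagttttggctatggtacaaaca

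Omd: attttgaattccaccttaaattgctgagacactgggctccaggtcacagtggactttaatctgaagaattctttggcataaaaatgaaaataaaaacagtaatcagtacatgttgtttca

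Ogn: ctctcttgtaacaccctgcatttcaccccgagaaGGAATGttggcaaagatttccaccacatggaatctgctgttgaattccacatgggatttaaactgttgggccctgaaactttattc

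The 300 bases around each member's start were searched on both strands for TATAAA, for the CArG box bound by SRF and for the TEAD core GGAATG. The last of these occurred in 1 place among the members, in Ogn, beginning 86 bases before the start, and it occurs in 14.7% of all 32851 promoter windows. TATAAA had 2 matches in Aspn and 2 in Ogn, further upstream than the bases shown, and those in Ogn, on opposite strands, overlap. It occurs in 13.6% of all windows. No CArG box was found in the 8 windows of the members, against 1.63% of all windows. A match describes letters and is not a measured site.

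The targeted gene was read by 1 probe set. Mrtfa read 8.32 with DMSO, 8.18 with Y-27632, 8.55 with control siRNA and 7.70 after knockdown, all as log2 signal. Array medians ran from 5.67 to 5.71, and 11600 genes reached the median of all values, 5.69, on at least 1 array and were analysed. Fibroblast markers were present, with all 8 above that value on all 4 arrays and summed log2 levels from 105.5 to 108.4. All 4 markers of tendon cells, which are rich in these proteoglycans, were below it on every array. Of the 7 chondrocyte markers, Acan, Comp and Matn3 were below it and Col2a1, Col9a1, Col11a1 and Sox9 above it on all 4 arrays.

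Of the 9 members, 8 passed the filter, and Fmod did not. The 6 Fmod probe sets stayed between 2.75 and 5.27 on every array. The analysed member nearest to the filter was Podn, whose highest signal was 7.61. For genes with several probe sets the 1 with the highest mean was used. All 5 analysed genes with several probe sets had them on the same side of 0 in each comparison, and 3 genes had a single probe set.

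**Figure D1:**
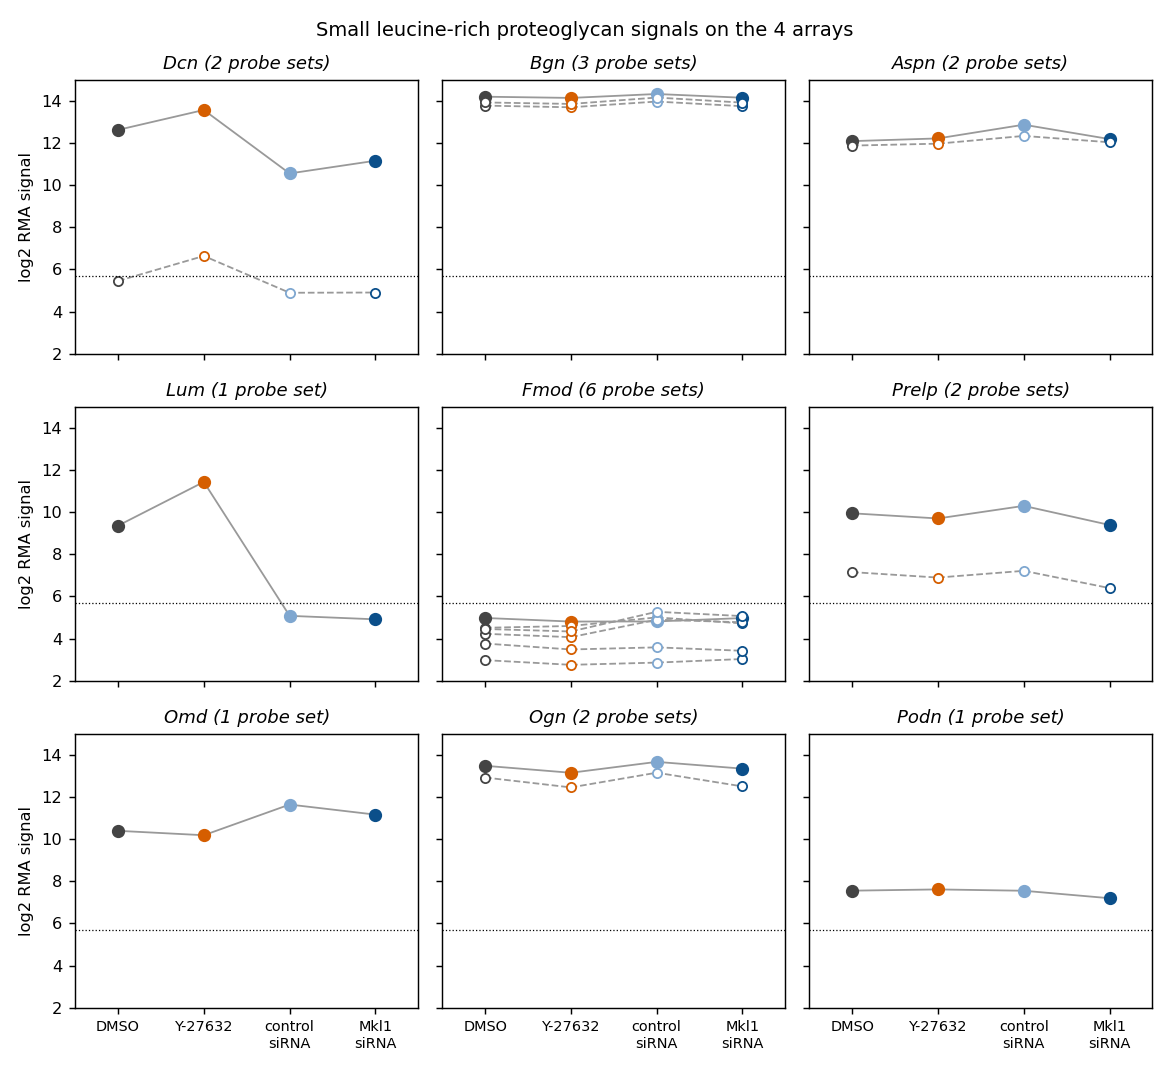
Log2 RMA signal (vertical axis) of every probe set of the 9 genes on the 4 arrays (horizontal axis), with filled points for the probe set used and open points for the others; the dotted line is the filter at 5.69. Lum and Dcn were high on the DMSO and Y-27632 arrays and lower on both siRNA arrays, whereas the Bgn probe set used stayed between 14.1 and 14.3.

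Lum encodes lumican, a keratan sulfate proteoglycan that limits the lateral growth of collagen fibrils. Its log2 signal was 9.36 with DMSO, 11.43 with Y-27632, 5.08 with control siRNA and 4.91 with Mkl1 siRNA. Both siRNA arrays thus stood below both others. The span of 6.52 was the widest of all 11600 analysed genes, beside a median span of 0.37. Lum was picked on the difference between the control arrays, which are part of this span, so its rank is a description only. The signal with DMSO exceeded 85.6% of the probe sets on its array and that with Y-27632 96.1%, but the siRNA signals exceeded 40.4% and 38.0%. Both siRNA signals lay below the filter, where RMA compresses differences.

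Dcn encodes decorin, which binds collagen fibrils through its repeat domain and carries a single chondroitin or dermatan sulfate chain. Its log2 signal was 12.62 with DMSO, 13.56 with Y-27632, 10.55 with control siRNA and 11.16 with Mkl1 siRNA. The order was that of Lum except that the siRNA arrays changed places. Only 0.5% of analysed genes had a wider span than its 3.01. A second, weak probe set read 5.45, 6.64, 4.89 and 4.90 on the same arrays, again highest with Y-27632.

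Bgn encodes biglycan, the closest relative of decorin. Its log2 signal was 14.19 with DMSO, 14.14 with Y-27632, 14.32 with control siRNA and 14.15 with Mkl1 siRNA. It spanned 0.19, and 84.0% of analysed genes had a wider span, although signals this close to the top of the scale may be compressed. The other 2 Bgn probe sets, which may bind several transcripts, had the same order of arrays.

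Aspn encodes asporin, a class I member with a run of aspartate residues and usually no such chain. It read 12.09 with DMSO, 12.22 with Y-27632, 12.87 with control siRNA and 12.18 with Mkl1 siRNA, so the control siRNA array alone stood apart. Omd encodes osteomodulin, a keratan sulfate proteoglycan known from bone. Omd read 10.40 with DMSO, 10.19 with Y-27632, 11.64 with control siRNA and 11.16 with Mkl1 siRNA, with both siRNA arrays above the others. Ogn encodes osteoglycin, also called mimecan. Ogn read 13.48 with DMSO, 13.15 with Y-27632, 13.67 with control siRNA and 13.35 with Mkl1 siRNA, within 0.52 on all arrays. Its second probe set ran more widely, from 12.5 with Y-27632 to 13.2 with control siRNA.

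Prelp encodes a basic member that anchors basement membranes to the connective tissue. Prelp read 9.94 with DMSO, 9.70 with Y-27632, 10.30 with control siRNA and 9.39 with Mkl1 siRNA, lowest after knockdown. Podn encodes podocan, which binds collagen. Podn read 7.56 with DMSO, 7.61 with Y-27632, 7.55 with control siRNA and 7.20 with Mkl1 siRNA, again lowest after knockdown. Fmod encodes fibromodulin, which shares a collagen binding region with lumican. Its probe set read 4.98 with DMSO, 4.81 with Y-27632, 4.81 with control siRNA and 4.97 with Mkl1 siRNA, all below the filter.

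With Y-27632, the family did not stand on either side of DMSO as a whole, and Lum and Dcn stood above it. Lum was higher by 2.08, a ratio of 4.21, with 27 analysed genes further above DMSO. Dcn was higher by 0.95, a ratio of 1.93, short of 2-fold, and its second probe set by 1.19. In all, 1 of 8 members was at least 2-fold higher, beside 1.27% of all analysed genes, and 0 were at least 2-fold lower, beside 0.224%. The other 6 members lay between -0.33 (Ogn) and 0.13 (Aspn). The median of the 8 was 0.00, as it was over all genes, and 4 of 8 were above 0, beside 50.4% of all genes. In bulk RNA, fewer cells of a type and less RNA per cell cannot be told apart, and this holds for every difference given here.

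Mature fat cell markers moved with this comparison. All 7 analysed of the 8 markers were above DMSO, 5 of them at least 2-fold, and the summed log2 level of the list was 70.7 with DMSO and 84.2 with Y-27632. The same list summed to 84.5 with Mkl1 siRNA and 70.3 with control siRNA. Lum was below the filter on both of those arrays, so its values there cannot be set against the markers. The part of the markers in the Lum and Dcn values was not tested.

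The size of these differences moved with the control array. Against the control siRNA array, 2 of 8 members were at least 2-fold higher with Y-27632 (2.03% of all genes) and 1 lower (0.75%). Lum was then higher by 6.35 and Dcn by 3.01, while Omd stood at -1.46.

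**Figure D2:**
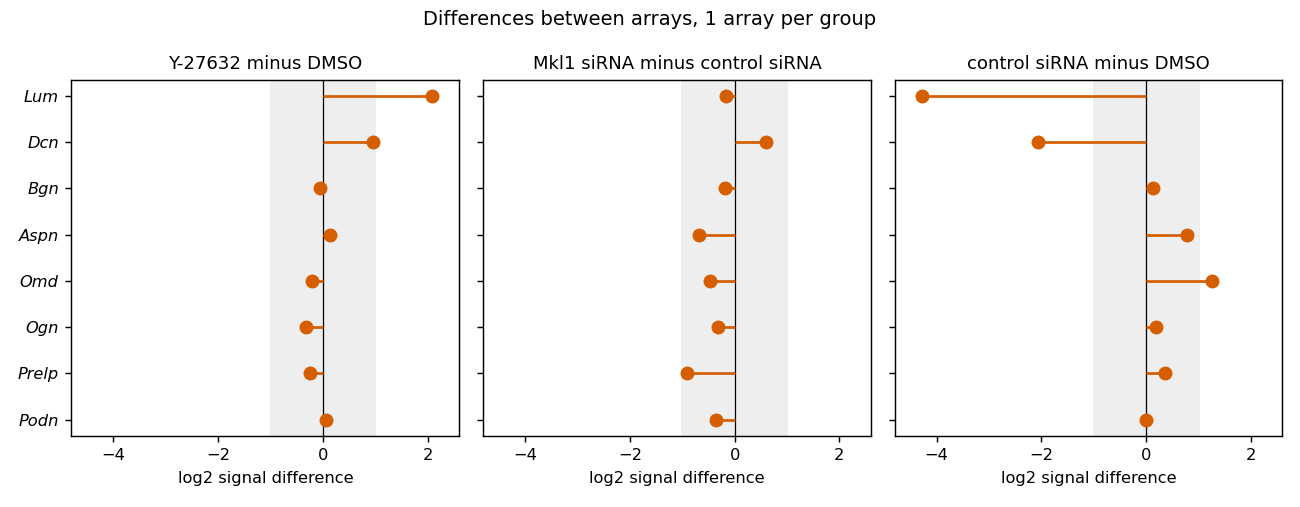
Log2 signal difference (horizontal axis) of the 8 analysed members in 3 comparisons of single arrays, with the band within 2-fold in grey. Lum lies outside the band with Y-27632, no member does after knockdown, and Lum, Dcn and Omd do between the control arrays.

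After Mkl1 knockdown, most members stood slightly below the control siRNA array, and none by 2-fold. Of 8 members, 7 were below 0 and the median was -0.34, beside 49.8% of all genes below 0 and a median of 0.00. The 7 include Lum, whose signals on both of these arrays were below the filter, so its side cannot be read. At least 2-fold, 0 members were higher, beside 1.79% of all genes, and 0 lower, beside 1.74%. Prelp was furthest at -0.91, a ratio of 0.534, with 252 analysed genes further below, and its second probe set stood at -0.82. On the probe sets used, Aspn followed at -0.68, Omd at -0.48, Podn at -0.35 and Ogn at -0.32, with Bgn at -0.18. This order rests on the probe set, as the second of Aspn stood at -0.30 and the second of Ogn at -0.65.

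Markers of several cell types moved with this comparison. For the mature fat cell list, the 7 analysed markers had a median difference of 1.86. Of these, 5 passed 2-fold on the higher side and 0 lay below 0. All 8 fibroblast markers were below control siRNA, with a median of -0.32. Their summed log2 level was 105.5 after knockdown, against 108.4. Among the 4 analysed of the 7 chondrocyte markers, 2 were at least 2-fold lower, Col11a1 at -1.84 and Sox9 at -1.05, although 1 of the 3 Sox9 probe sets stood at 0.06. The other analysed ones, Col2a1 and Col9a1, stood at -0.17 and 0.11. All 7 together, including those below the filter, summed to 42.7 with control siRNA and 38.7 with Mkl1 siRNA. The part of these markers in the members' values was not tested.

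Dcn was the exception, higher by 0.60, a ratio of 1.52. Its second probe set, at the low end of the scale, differed by 0.01. Lum differed by -0.17, but between signals that were both below the filter. Against DMSO, Dcn stood on the other side of 0 at -1.46 and Lum at -4.44, and these were the 2 of 8 members at least 2-fold lower, beside 3.23% of all genes. None was at least 2-fold higher against DMSO, beside 2.73% of all genes. Prelp, Podn, Ogn and Bgn were below both control arrays. Their values against DMSO were -0.55, -0.36, -0.14 and -0.05 in that order, so Bgn lay near 0. Aspn stood at 0.10 and Omd at 0.77 in that comparison.

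Between the control arrays, Lum and Dcn stood lower with control siRNA, Omd stood higher, and Bgn, Ogn and Podn lay near 0. Lum was lower with control siRNA by 4.28 than with DMSO, a 19.4-fold difference, and the next gene in that order was Scara5 at -3.53. Dcn differed by -2.07, a 4.19-fold difference, with 20 analysed genes further below. Omd stood on the other side at 1.25, a ratio of 2.37, Aspn at 0.78 and Prelp at 0.35. At least 2-fold, 1 of 8 members was higher, beside 0.957% of all genes, and 2 were lower, beside 1.09%; since the family was selected on this contrast, nothing is read from these counts. Bgn, Ogn and Podn lay between -0.00 and 0.19. Transfection and the siRNA itself cannot be told apart from other differences between these 2 arrays. The comparison shares an array with each treatment comparison, so a high control siRNA value, as for Aspn and Omd, enters the knockdown difference with the opposite sign.

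**Figure D3:**
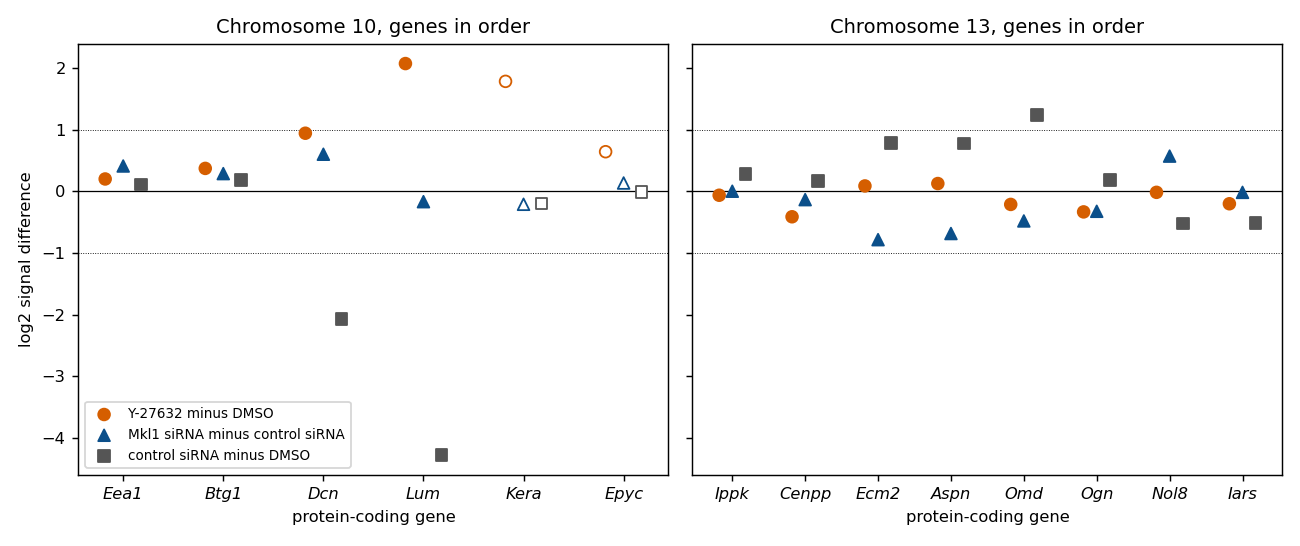
Log2 signal difference (vertical axis) of protein-coding genes in their order along 2 stretches of the genome, with open symbols for genes below the filter and dotted lines at 2-fold; Gm46240, between Btg1 and Dcn, was not on the array. Dcn and Lum lie low between the control arrays while Btg1 and Eea1 lie near 0. In the same comparison Ecm2, Aspn and Omd lie high, Ippk lies at 0.29, and Nol8 and Iars lie below 0.

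Set in genome order, the analysed members of the chromosome 10 and chromosome 13 rows stood on the same side between the control arrays, although Ogn lay near 0. The family was selected on this contrast, so nothing is read from the shared side. On chromosome 10, Dcn (-2.07) and Lum (-4.28) were followed by Kera, which encodes the corneal proteoglycan keratocan, and Epyc (epiphycan), both below the filter on all arrays. Kera nevertheless read 3.75 with DMSO, 5.54 with Y-27632, 3.55 with control siRNA and 3.35 with Mkl1 siRNA, highest on the array where Lum and Dcn were highest. On the other side of Dcn, Btg1, an antiproliferative gene, differed by 0.19 and Eea1, an endosome protein, by 0.11.

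On chromosome 13, Ecm2, a related leucine-rich matrix protein, stood at 0.78 between the control arrays, Aspn at 0.78, Omd at 1.25 and Ogn at 0.19. With Mkl1 siRNA against control siRNA the same 4 stood at -0.78, -0.68, -0.48 and -0.32. The second, weak Ecm2 probe set pointed the other way in both, at -0.33 and 0.14. Both contrasts share the control siRNA array. With Mkl1 siRNA against DMSO, Ecm2 stood at 0.00, Aspn at 0.10, Omd at 0.77 and Ogn at -0.14. The next genes, Nol8 and Iars, stood at -0.52 and -0.51 between the control arrays, opposite to the row. Ippk, on the other flank, stood at 0.29, on the same side as the row. Cenpp, a centromere protein gene whose span overlaps Aspn, Omd and Ogn, differed by 0.17. On chromosome 1, Prelp had 2 neighbours from the same family, Fmod and Optc, that were both below the filter.

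The genes whose pattern was most like Lum were found by the Euclidean distance between log2 signals, each centred on its own mean over the 4 arrays. The 6 nearest on this measure were Rgs13 at 1.22, Scara5 at 2.01, Agtr2 at 2.24, Abca8a at 2.30, Itih5 at 2.33 and Plac8 at 2.35. Dcn was the 19th of all genes, at 3.31, and the nearest member after it was Podn in place 2215. With 4 arrays this is a description, and it includes the contrast on which Lum was picked. The choice of genes rests on the measure: with each gene scaled to unit range, 0 of these 6 were among the 6 nearest.

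Of these, Scara5, a ferritin receptor, read 10.14 with DMSO, 11.34 with Y-27632, 6.62 with control siRNA and 7.55 with Mkl1 siRNA. Abca8a, a lipid transporter of the ABC family, read 10.51, 11.68, 8.11 and 7.67 on the same arrays. Itih5, which encodes a heavy chain that stabilises the hyaluronan matrix, read 6.63, 8.96, 5.02 and 4.36. All 3 had the highest signal with Y-27632 and both siRNA arrays below both others. They were picked for likeness to Lum on these same arrays, so this order is no separate result. The other Itih5 probe sets stood at -0.56 and -0.78 between the control arrays, against -1.61 for the probe set used. Rgs13, a regulator of G protein signalling, was below the filter on both siRNA arrays, as Lum and Itih5 were. Agtr2, an angiotensin receptor, was below it with DMSO too, at 4.85, and passed only through its Y-27632 signal of 6.79. Plac8 differed from the rest in standing at -0.09 with Y-27632 against DMSO. The second Scara5 probe set, a weak one, differed by -0.01 with Y-27632 and by -0.49 between the control arrays.

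**Figure D4:**
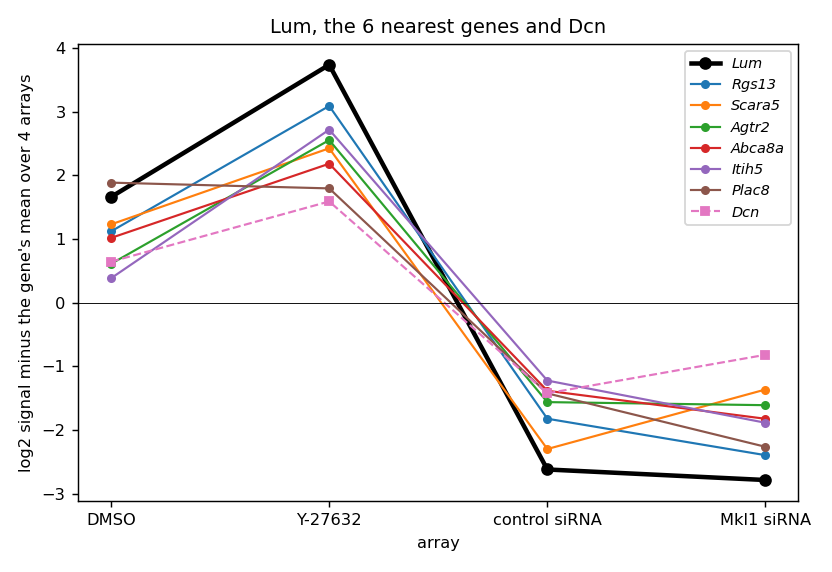
Log2 signal minus each gene's mean over the 4 arrays (vertical axis) by array (horizontal axis) for Lum, the 6 nearest genes on this unscaled measure and Dcn. Lum, Rgs13, Scara5, Agtr2, Abca8a, Itih5 and Dcn peak with Y-27632, Plac8 differs by -0.09 between Y-27632 and DMSO, and all lie below their mean on both siRNA arrays.

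The other genes of the proteoglycan pathway were followed through 7 lists with 103 genes, of which 76 were analysed. With Y-27632, 1 of the 76 was at least 2-fold higher, beside 1.27% of all genes, and 0 lower, beside 0.224%, with a median of 0.10. After Mkl1 knockdown 0 were higher, beside 1.79% of all genes, and 3 lower, beside 1.74%. Their median was then -0.19 with 55 of 76 below 0, beside 0.00 and 49.8% over all genes. Between the control arrays 3 were higher, beside 0.957%, and 1 lower, beside 1.09%, with a median of 0.03. The shares of all genes below 0 after knockdown (49.8%) and above 0 with Y-27632 (50.4%) stand beside each list count that follows.

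Among collagens and fibril partners, 11 of 13 were below 0 after knockdown, with a median of -0.35. Col1a1, a chain of type I collagen, read 12.57 with DMSO, 12.75 with Y-27632, 12.23 with control siRNA and 11.18 after knockdown. That is -1.05 after knockdown, and its 2 probe sets ran from -1.07 to -1.05. The probe sets of Col1a2 ran from -1.22 to -0.31 and those of Col3a1 from -1.51 to -0.32. For both genes the probe set used gave the smallest drop, at signals near the top of the scale. Col5a2, which with other type V chains starts fibrils, stood at -0.82, and Col6a3 of the beaded type VI filaments at -0.66. With Y-27632, 11 of 13 were above 0, but the median was 0.10 and none reached 2-fold. Between the control arrays Col12a1, a fibril-associated collagen known to lie with decorin, stood at 1.63, although its 4 probe sets ran from 0.16 to 1.63.

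Enzymes that start, extend and sulfate chondroitin and dermatan chains had 13 of 18 below 0 after knockdown, with a median of -0.17. Chst14, which sulfates dermatan chains such as that of decorin, read 9.83 with DMSO, 9.77 with Y-27632, 9.99 with control siRNA and 8.96 with Mkl1 siRNA. Its difference of -1.03 was the only one in the list past 2-fold after knockdown. Csgalnact1, which starts chondroitin chains, stood at 1.17 between the control arrays, and its 2 probe sets at 1.17 and 1.43. With Y-27632 the median was 0.11, led by the sulfotransferases Chst15 at 0.69 and Chst11 at 0.56. The 7 analysed keratan sulfate enzymes held none past 2-fold in any comparison, with medians of 0.18 with Y-27632, -0.01 after knockdown and 0.06 between the control arrays.

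Among proteases that process or cleave these proteins, Mmp3, a metalloproteinase that cuts decorin, was the only 1 of 11 at least 2-fold higher with Y-27632. It read 7.26 with DMSO, 8.41 with Y-27632, 7.84 with control siRNA and 8.36 with Mkl1 siRNA, above DMSO on all other arrays. Bmp1, which trims several procollagens and probiglycan, stood at 0.13 with Y-27632 and -0.48 after knockdown, but its 3 probe sets ran from -0.09 to 0.32 and from -0.48 to 0.15. After knockdown 9 of 11 proteases were below 0, with a median of -0.24.

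Among growth factors and receptors, Ccn4, a matricellular protein that binds decorin and biglycan, was after knockdown the furthest from control siRNA among the 76 analysed list genes. It read 11.22 with DMSO, 10.84 with Y-27632, 10.73 with control siRNA and 9.21 with Mkl1 siRNA. It was lowest after knockdown, by -1.52 against control siRNA. Tgfbr1, a TGF-beta receptor, was higher with Y-27632 by 0.74, with 3 probe sets from 0.04 to 0.74. Met, a receptor kinase that decorin binds, was lower with control siRNA by 1.19 than with DMSO on 1 probe set, while the other differed by 0.04. The list medians were 0.02 with Y-27632 and -0.17 after knockdown.

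Other proteoglycans held none past 2-fold in either treatment comparison. Sdc1, a cell surface syndecan, stood at 0.68 with Y-27632 and 0.54 after knockdown, and Gpc1, a glypican, at 0.32 and 0.71. Vcan, the large matrix proteoglycan versican, stood at 0.52 and -0.12, and its 8 probe sets ran from 0.00 to 0.55 and from -0.84 to 0.18. Hspg2, the basement membrane proteoglycan perlecan, stood at 0.31 and -0.63, with 2 probe sets from 0.07 to 0.31 and from -0.63 to -0.17. Gpc6, another glypican, stood at 1.03 between the control arrays, and its 5 probe sets ran from 0.56 to 1.16.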

How the data were processed

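Total RNA was labelled with biotin and hybridised to Affymetrix mouse arrays. The deposited files give log2 signals. Per the submitters' processing notes these came from RMA, which removes background, equalises array distributions and summarises probes, and which compresses weak differences. Its version is not given in the sources used here, and no scanner signals were used. The values themselves showed the log2 scale and that genes were not centred.

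Of 45101 probe sets, 34958 carried 1 platform gene symbol, updated by gene number through a RefSeq table of GRCm38.p6. For each gene the probe set with the highest mean was kept. A gene was analysed if it reached 5.69, the median of all values, on any array. Differences were computed in pandas 2.3.3 and counted from 2-fold (1 on the log2 scale). No test is possible with 1 array per group. The calculation was tested on simulated data with shifts set past the threshold, which checks the code and not the noise of these arrays.

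The members and lists were chosen with earlier results of these data known. Named genes were the members, Mrtfa, the 6 nearest to Lum, neighbouring genes, markers and up to 4 genes per list and comparison with the largest differences.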

Additional observations from a re-analysis of the deposited data

How the results depend on the processing

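With 1 array per group no replicate could be left out. No paired analysis was possible because each group holds 1 array. No member past 2-fold in the 3 comparisons as reported changed sign under the alternatives run, but Dcn, at 0.60 after knockdown, stood at -1.46 with DMSO as the control array. With the mean of all probe sets, 2 members reached 2-fold with Y-27632 (Dcn at 1.07) in place of 1, and list genes past 2-fold, summed over 3 comparisons, numbered 5 in place of 8, against 11 with no filter. At a 1.5-fold threshold, 2 members were counted with Y-27632, 3 after knockdown and 4, in place of 3, between the control arrays. The 3 after knockdown lay on both sides, Dcn above 0 and Aspn and Prelp below. The share of all genes past 1.5-fold was not computed, so nothing is read from these counts. With the other control array, 3 members were counted with Y-27632 and 2 with Mkl1 siRNA. The near-zero member median with Y-27632 ranged from -0.35 with that array to 0.00. When each gene was scaled to unit range, 0 of the 6 genes most like Lum were among the 6 nearest, and 4 were with the mean of all probe sets. Signals below 5.69, as those of Lum on both siRNA arrays, limit how far ratios can be read.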
